A study of Homo sapiens with 6 samples.

Results

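The genes described here are the transcription factors FOXO1, FOXO3 and FOXO4, the ubiquitin ligase genes TRIM63 and FBXO32, and 5 genes known as FOXO targets or partners in insulin signalling, IRS2, INSR, PIK3IP1, TXNIP and KLF15. They were taken by symbol from a table of read counts, and all 10 were found among its 22941 genes. The set was in part selected on measured values: TRIM63 was included because its difference between the culture conditions was among the largest rises. That comparison therefore describes these genes and does not test them, and no p-value is given for any of the 10. The cells were HSC-3, a tumour line of oral squamous carcinoma, and RNA-seq was done on 3 libraries of cells under normal gravity (NG) and 3 of cells turned in a rotary culture vessel (RCCS) to simulate microgravity (SMG). All libraries come from this line, maintained in DMEM with fetal bovine serum, and no source used here states how long the cells were cultured. The titles number biological replicates without saying how separate the cultures were, so p-values cover only the spread among these libraries, and that spread may be technical. The count table calls the control columns NC, which were taken as normal gravity because it is the only other group.

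FOXO factors carry a forkhead domain that binds DNA near the genes they switch on. When insulin or growth factors act through their receptors, IRS adaptors and phosphoinositide 3-kinase (PI3K), the kinase AKT phosphorylates FOXO proteins and they leave the nucleus. When that signal is low they return to it and raise genes of growth arrest, stress resistance, metabolism and, in skeletal muscle, the ligases TRIM63 (MuRF1) and FBXO32 (atrogin-1) that mark muscle proteins for the proteasome. RNA levels do not show where FOXO proteins are in the cell.

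Promoter sequences show where the letters that FOXO proteins bind lie near the starts of these genes. RefSeq (GRCh38.p14) gave 14 windows, from 250 bases before to 50 after a transcript start, for 9 of the 10 genes. The FOXO element TGTTTAC, searched on both strands, was in 3 of the 14 windows, 1 each of TXNIP, PIK3IP1 and FOXO4, and in 3.42% of all 35116 windows of that length. The insulin response letters TGTTTTG were in the IRS2 window and in 4.92% of all windows. These stretches of 30 bases, written 5′ to 3′ on the strand of the gene with the matched letters in capitals, are shown because they carry the matches:
TXNIP (chr1:145996686-145996715, minus strand): gtcgggctcctgGTAAACAaggaccgggca
PIK3IP1 (chr22:31292455-31292484, minus strand): ctaaagagaggcTGTTTACcagaacagcat
FOXO4 (chrX:71095862-71095891, plus strand): ccccggcgagtgGTAAACAgagacgtcagg
IRS2 (chr13:109786606-109786635, minus strand): cgagtcacatgtTGTTTTGctcttcttagt

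The match began 124 bases before the transcript start in TXNIP and 40 bases before it in IRS2. In PIK3IP1 and FOXO4 it began at bases 17 and 24 of the transcript. TRIM63 held neither of these. After its window had been read, the shorter core TGTTTA, which is part of TGTTTAC and so overlaps it, was also searched, and it was found in 5 of the 14 windows and in 12.3% of all windows. In TRIM63 it began 193 bases before the start, directly after TGTTCT, the reverse complement of AGAACA, a hexamer bound by the glucocorticoid receptor. AGAACA was in 3 of the 14 windows, from TRIM63 and PIK3IP1, and in 14.8% of all windows. The E-box CACGTG was in the KLF15 window alone and in 7.26% of all windows. The 250 bases before the TRIM63 start are shown because this gene changed most, with both adjoining matches in capitals:
TRIM63 (chr1:26067631-26067880, minus strand): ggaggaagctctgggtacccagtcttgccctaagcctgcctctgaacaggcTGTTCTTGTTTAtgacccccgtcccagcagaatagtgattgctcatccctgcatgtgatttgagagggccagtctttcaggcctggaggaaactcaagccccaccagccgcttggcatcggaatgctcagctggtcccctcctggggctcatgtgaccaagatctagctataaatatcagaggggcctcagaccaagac

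A match is a description of these letters and not a measured binding site.

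Total counts ran from 34264008 to 38861233 per library. Levels are CPM, the read count relative to the TMM-scaled size of its library, and log2 fold changes (here called changes) are SMG minus NG with their standard error (SE). A level is thus a share of the RNA in a library, and in such bulk samples fewer cells of a type and less RNA per cell cannot be told apart. All 10 squamous epithelial markers were detected, 4 of them higher, 3 lower and 3 not passed in SMG, with a summed level of 12948 to 21237 CPM in NG and 6149 to 7279 CPM in SMG. The basal keratins KRT14 and KRT5 fell, with changes of -3.41 (SE 0.24) and -3.26 (SE 0.27), and the adhesion proteins CDH1 and EPCAM rose, with changes of 1.26 (SE 0.14) and 0.72 (SE 0.12). Of 12 fibroblast, endothelial and leukocyte markers 9 were tested, and 3 rose and 6 did not pass, with a summed level of 139 to 150 CPM in NG and 286 to 307 CPM in SMG, mostly the lysosomal protein CD68 (change 1.00, SE 0.13) and the receptor CD14 (1.63, SE 0.15). Also higher was the endothelial gene CDH5, with 0, 1 and 5 counts in NG and 21, 14 and 45 in SMG. The fibroblast gene COL1A1 was at 17.8 ± 9.79 CPM in NG and 17.3 ± 0.419 CPM in SMG (SD, n = 3) and did not pass. The leukocyte genes PTPRC and CD3E and the fibroblast gene LUM were near 0 and not tested. The part of these shifts in the results was not tested. Normal gravity replicate 3 stood apart: chi-square per degree of freedom over genes was 17.9 between NG replicates 1 and 2, but 94.1 and 142 between them and replicate 3. Values of the 10 genes, and of some other named genes that moved with it, are therefore given with and without it.

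Of the 10 genes, 9 passed the filter on low counts and KLF15 did not. TRIM63 passed it through the SMG libraries alone. The threshold of an adjusted p under 0.05 (edgeR quasi-likelihood test over 14736 genes) was passed upward by 6 of the 9 and downward by none, where 28.2% of all genes tested passed upward, 29.3% downward and 57.6% in either direction. The groups did not overlap, with SMG higher, in the same 6 genes, and in 33.0% of all genes tested, while SMG was lower without overlap in 33.4% and 66.3% did not overlap in either direction. Without NG replicate 3, 9 of 9 passed upward, where 31.8% of 15218 genes passed upward, 31.0% downward and 62.8% in either direction. Since the genes were proposed from this comparison, nothing is read from these shares.

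**Figure D1:**
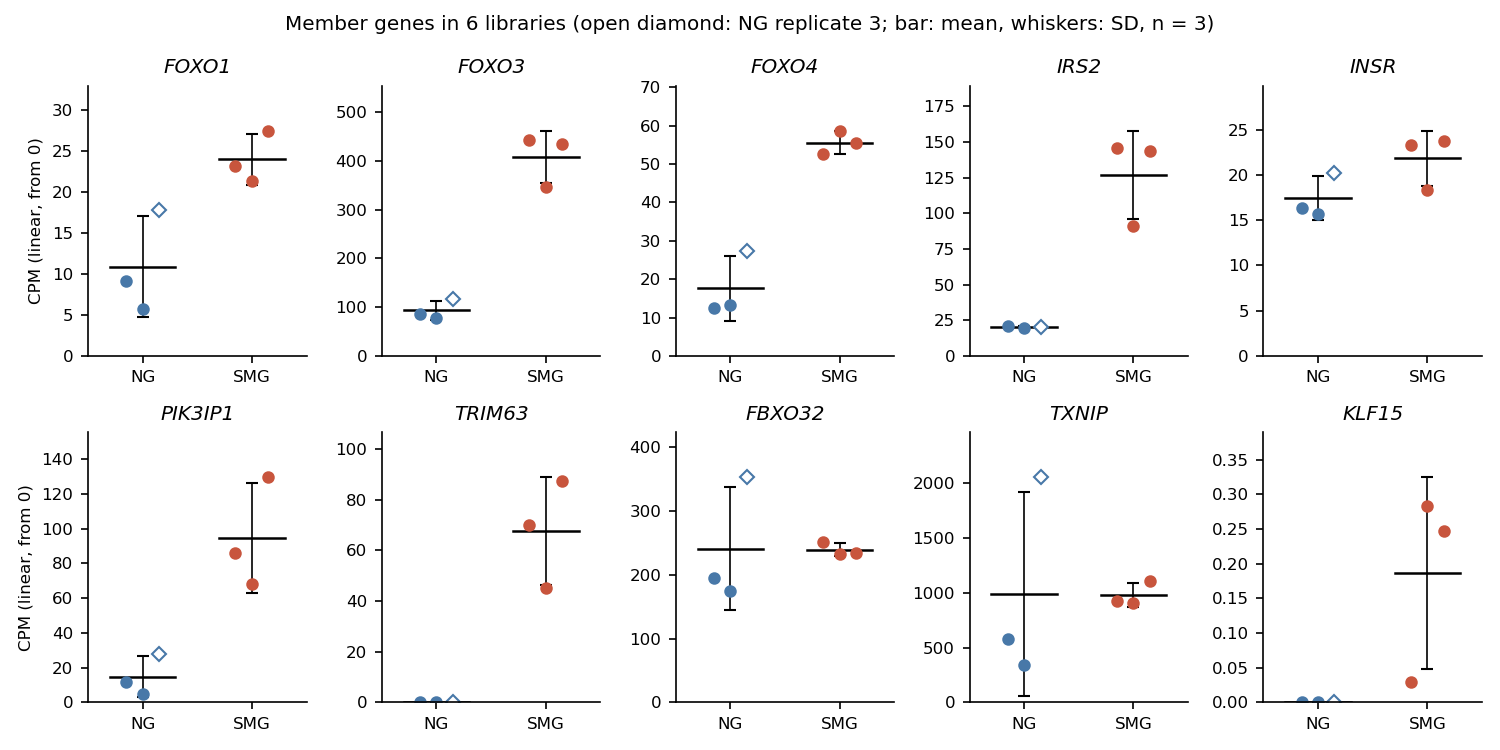
CPM (vertical axes, linear from 0) of the 10 genes in each library, NG in blue and SMG in red, with NG replicate 3 as an open diamond, the mean as a bar and SD as whiskers (n = 3). In TXNIP and FBXO32 the diamond, at 2049 and 352 CPM, lies above every SMG library, while in IRS2 it lies among the other NG libraries.

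FOXO1, FOXO3 and FOXO4 were each higher in SMG. FOXO3 (chr6:108559825-108684774, GRCh38.p14, as for the other genes), the most abundant of them also per kilobase, was at 86.0, 78.1 and 116 CPM in NG replicates 1 to 3 and at 443, 347 and 435 CPM in the SMG libraries. The lowest SMG library was well above the highest NG library, and the change was 2.13 (SE 0.18). FOXO4 (chrX:71095851-71103532) was at 12.4, 13.2 and 27.4 CPM in NG and 52.7, 58.6 and 55.5 CPM in SMG, a change of 1.66 (SE 0.29). FOXO1 (chr13:40555667-40666641), the factor best known from insulin control of liver glucose output, was at 9.18, 5.75 and 17.8 CPM in NG and 23.2, 21.4 and 27.4 CPM in SMG, a change of 1.14 (SE 0.37). In both FOXO1 and FOXO4 the groups did not overlap, but NG replicate 3 lay between the other NG libraries and SMG. Without it the changes were 1.69 (SE 0.21) for FOXO1 and 2.12 (SE 0.12) for FOXO4, and 2.31 (SE 0.14) for FOXO3. FOXO1 was the least stable of the 3, since its call was lost without NG replicate 1 or any of the SMG libraries.

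FOXO3B, a copy of FOXO3 at another place in the genome, was counted apart, so the split of reads between the pair is uncertain. It was at 11.0 ± 3.29 CPM in NG and 18.6 ± 4.45 CPM in SMG (SD, n = 3; edgeR adjusted p = 0.0365), and its groups overlapped. This call was lost without NG replicate 1, NG replicate 2, SMG replicate 1 or SMG replicate 3, with changes of 0.53 to 0.80. Its level was small beside that of FOXO3 in each library.

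FOXO6, the family member best known from brain, was at 1.62, 1.73 and 13.5 CPM in NG and 4.22, 3.77 and 4.67 CPM in SMG. It was thus highest in NG replicate 3 and next in SMG, and it did not pass the test (change -0.41, SE 0.77, adjusted p = 0.672). Without NG replicate 3 the direction turned, to a change of 1.33 (SE 0.28, edgeR adjusted p = 0.00155). Per kilobase of merged exons (RPKM, lengths from GENCODE release 29), FOXO3 gave 63.3%, 62.1% and 42.3% of the level summed over the 4 FOXO genes in NG replicates 1 to 3, and 71.5%, 65.1% and 69.5% in SMG. FOXO6 gave 25.7% of it in NG replicate 3 and between 3.56% and 7.19% in the other 5 libraries. The summed level was 17.6, 16.3 and 35.6 RPKM in NG and 80.2, 69.0 and 81.1 RPKM in SMG, so NG replicate 3 lay between the others and SMG also on this scale. These shares are descriptions with no test.

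**Figure D2:**
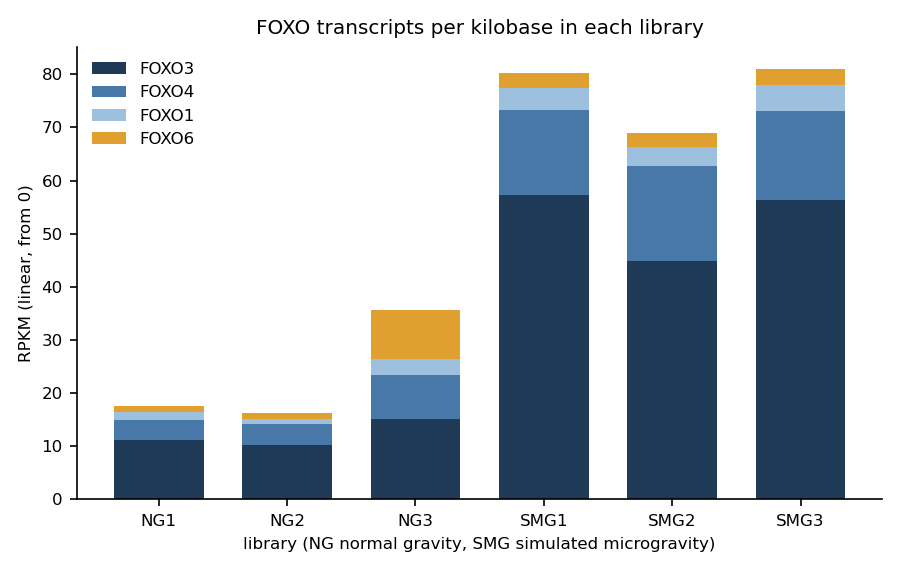
RPKM (vertical axis, linear from 0) of FOXO3, FOXO4, FOXO1 and FOXO6 stacked for each of the 6 libraries. The stack reaches 16.3 to 35.6 RPKM in NG and 69.0 to 81.1 RPKM in SMG, and the FOXO6 segment is widest in NG replicate 3.

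Among genes of insulin signalling, IRS2 and PIK3IP1 were far higher in SMG and INSR moved little. IRS2 (chr13:109752695-109786583), the adaptor that carries the insulin receptor's signal to PI3K, was at 20.9, 19.3 and 20.1 CPM in NG and 146, 91.2 and 143 CPM in SMG. The NG libraries lay within 1.09-fold of each other, and the change of 2.66 (SE 0.19) was 2.66 also without NG replicate 3. NG replicate 3 lay 0.0025 (log2) above the mean of NG replicates 1 and 2, the smallest gap among the 9 genes that passed the filter. PIK3IP1 (chr22:31281593-31292534), a membrane protein that restrains PI3K, was at 11.7, 4.90 and 28.1 CPM in NG and 85.8, 68.1 and 129 CPM in SMG, a change of 2.66 (SE 0.57). Its NG libraries spread over 5.74-fold, and the change was 3.51 (SE 0.51) without NG replicate 3. Its call, like that of FOXO1, was lost without the low-count filter. PIK3IP1-DT, a divergent transcript that starts beside it, was also higher, at 0.132 ± 0.0697 CPM in NG and 0.573 ± 0.220 CPM in SMG (SD, n = 3; edgeR adjusted p = 0.0183), a call that was lost without NG replicate 1, NG replicate 2 or SMG replicate 2, with changes of 1.72 to 2.22. No source used here states whether reads were counted by strand, so reads of such a pair may be mixed where they overlap. FOXO6-AS1, antisense to FOXO6, had 0, 0 and 1 counts in NG and 4, 15 and 12 in SMG and was not tested. INSR (chr19:7112265-7294414), the insulin receptor, was at 16.4, 15.7 and 20.2 CPM in NG and 23.4, 18.3 and 23.8 CPM in SMG. The groups overlapped, because SMG replicate 2 lay below NG replicate 3, and the change was 0.32 (SE 0.17), or 0.44 (SE 0.15) without NG replicate 3.

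The ligase genes went apart. TRIM63 (chr1:26051301-26067630) had 0, 1 and 2 counts in NG replicates 1 to 3 and 2439, 1590 and 3183 counts in SMG, that is 70.0, 45.0 and 87.4 CPM. The ratio was 2561, with a 95% counting interval from 876 to 12420 (exact binomial), which covers counting error only. Without NG replicate 3 the ratio was 5133 (921 to 202763), on 1 count in NG. Per kilobase it reached 38.1 ± 12.0 RPKM in SMG (SD, n = 3), beside 35.5 ± 1.52 RPKM of FBXO32, so a gene with 3 counts in all NG libraries came to a level like that of its partner. FBXO32, the substrate receptor of an SCF ubiquitin ligase, was at 196, 175 and 352 CPM in NG and 251, 233 and 235 CPM in SMG. Its means were 241 ± 97.0 CPM in NG and 239 ± 10.2 CPM in SMG (SD, n = 3), and the change was -0.01 (SE 0.25). The 3 SMG libraries lay above NG replicates 1 and 2 and below NG replicate 3. Without NG replicate 3 the change was 0.37 (SE 0.10) and passed the threshold.

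TRIM63 is best known from striated muscle, and most markers of skeletal muscle were absent or near 0. Of 24 such markers 8 were not listed in the table, among them MYH1, MYH2, MYH7, MYOD1 and PAX7, and 13 were below the filter, among them ACTA1, CKM and TTN. Their summed level was 148 to 165 CPM in NG and 67.8 to 78.6 CPM in SMG, nearly all of it TNNT1, a troponin, which fell from 153 ± 7.72 to 68.1 ± 4.39 CPM (SD, n = 3; edgeR adjusted p = 3.76e-05). Of the other markers tested, TNNI2, a fast-muscle troponin, fell from 1.64 ± 0.652 to 0.387 ± 0.339 CPM (adjusted p = 0.0240), and MB, myoglobin, rose from 0.388 ± 0.308 to 4.67 ± 1.19 CPM (edgeR adjusted p = 0.000898). Counts of these markers moved with single libraries: 2 rose without SMG replicate 1 or any of the NG libraries, and 1 fell without SMG replicate 1 or SMG replicate 3, where TNNI2 no longer passed (changes -1.90 and -1.63). The part of muscle genes in the rise of TRIM63 was not tested.

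TXNIP and KLF15 have metabolic roles. TXNIP (chr1:145992435-145996579), an arrestin-domain protein that binds thioredoxin and lowers glucose uptake, was the most abundant of the 10 genes, also per kilobase. It was at 577, 337 and 2049 CPM in NG and 923, 904 and 1108 CPM in SMG. The means of 988 ± 927 CPM and 978 ± 112 CPM (SD, n = 3) were nearly the same while the groups overlapped, and the change was -0.01 (SE 0.58). As with FBXO32, the 3 SMG libraries lay above NG replicates 1 and 2 and below NG replicate 3, and without NG replicate 3 the change was 1.10 (SE 0.21) and passed the threshold. KLF15 (chr3:126288125-126357408), a Kruppel-like factor that acts with the glucocorticoid receptor in muscle, had 0 counts in each NG library and 1, 10 and 9 counts in SMG. Against a floor of 3 counts over the NG group it was 7.10-fold higher, and 4.74-fold higher with the same floor without NG replicate 3. These values take the SMG counts as exact, so they leave out counting error in SMG and the spread between libraries.

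**Figure D3:**
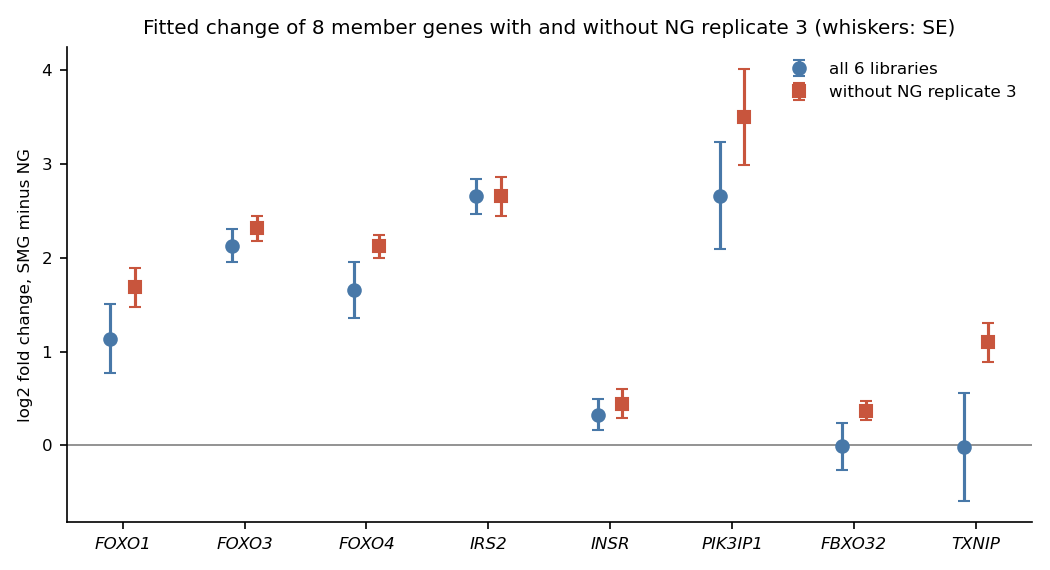
Log2 fold change (vertical axis, SMG minus NG) of 8 of the genes with all 6 libraries (blue) and without NG replicate 3 (red), with SE as whiskers. TRIM63 and KLF15, with 3 and 0 counts in NG, are not drawn. TXNIP moves from -0.01 to 1.10 and FBXO32 from -0.01 to 0.37, while IRS2 stays at 2.66.

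Within NG, 1 library was the highest for most of the genes. NG replicate 3 was the highest NG library for 8 of the 9 genes that passed the filter, IRS2 being the exception, and for 41.5% of all genes tested. It was at least 2-fold above the mean of NG replicates 1 and 2 for 5 of the 9, TXNIP, TRIM63, PIK3IP1, FOXO1 and FOXO4, and for 7.33% of all genes, although TRIM63 rests on 3 counts. The median over the 9 was 1.10 (log2), and it was near 0 over all genes. Marker lists were above 0 too. Their medians were 0.92 for skeletal muscle (3 tested), 0.61 for fibroblast, endothelial and leukocyte, and 0.45 for squamous epithelial markers. It was -0.05 for the PI3K and AKT genes and also for the FOXO partners and modifiers. NG replicate 2 was the lowest of all 6 libraries for 7 of the 9 and for 17.8% of all genes. These measures were chosen after the values had been seen, use libraries of the same comparison, and are given as descriptions. In SMG the highest library was between 1.08-fold (FBXO32) and 1.94-fold (TRIM63) above the lowest in those 9 genes. IRS2 spread over 1.60-fold in SMG and 1.09-fold in NG, and INSR over 1.30-fold in SMG and 1.29-fold in NG. SMG replicate 2 was the lowest for 8 of them and for 37.2% of all genes.

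Other genes known as FOXO targets went both ways. Of 30 listed, 24 were tested, and 12 rose, 5 fell and 7 did not pass, with a median log2 fold change of 0.53 beside -0.01 over all genes. Without NG replicate 3, 15 rose and 5 fell. ERBB3, a receptor tyrosine kinase that FOXO proteins raise when PI3K is inhibited, rose from 92.7 ± 21.1 to 547 ± 65.0 CPM (SD, n = 3; edgeR adjusted p = 1.78e-05). MAP1LC3B, the LC3 protein of autophagosomes, had a change of 1.99 (SE 0.17). Of those that fell, BNIP3, a mitophagy receptor that hypoxia also raises, had a change of -1.41 (SE 0.10), and PRDX3, a mitochondrial peroxidase, of -0.75 (SE 0.10). GLUL, glutamine synthetase, was named after its values were seen. It was at 251, 178 and 1094 CPM in NG and 465, 594 and 685 CPM in SMG, so that, as in TXNIP, the SMG libraries lay above NG replicates 1 and 2 and below NG replicate 3. Its change was 0.20 and did not pass, and it was 1.44 (SE 0.19) and passed without NG replicate 3. NG replicate 3 was the highest NG library for 17 of the 24, beside 41.5% of all genes tested.

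Upstream, the PI3K and AKT genes also went both ways. Of 23 tested of 26, 6 rose, 6 fell and 11 did not pass, with a median of -0.00 (log2), and the kinase genes AKT1 and AKT2 were among the 11. TRIB3, a pseudokinase that binds AKT, rose from 27.2 ± 4.66 to 104 ± 9.37 CPM (SD, n = 3; edgeR adjusted p = 2.31e-05). AKT1 passed downward without NG replicate 3 (change -0.30, SE 0.09). RICTOR, the mTORC2 subunit, rose with a change of 1.08 (SE 0.10). PIK3R1, the main regulatory subunit of PI3K, fell from 32.6 ± 6.88 to 11.7 ± 2.06 CPM (adjusted p = 0.000366), and its relative PIK3R2 had a change of -0.72 (SE 0.10).

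Receptors and adaptors of insulin and IGF split evenly, with 3 higher, 3 lower and 6 not passed of 12 tested of 17 (median 0.12), and 5 rose without NG replicate 3. IRS1, the adaptor related to IRS2, was at 5.39, 11.0 and 3.72 CPM in NG and 5.05, 5.64 and 5.38 CPM in SMG, and IGF1R, the IGF receptor, at 102 ± 11.4 and 106 ± 2.78 CPM (SD, n = 3). Neither passed the test (edgeR adjusted p = 0.479 and 0.695). GAB2, a docking adaptor of PI3K, rose from 0.592 ± 0.299 to 16.4 ± 4.35 CPM (adjusted p = 3.13e-05). GRB14, an adaptor that inhibits the insulin receptor, had 1 count in NG and 2.45 ± 0.491 CPM in SMG (adjusted p = 5.80e-05). PTPN1, the phosphatase that acts on the insulin receptor, fell with a change of -0.66 (SE 0.10), and SH2B2, an adaptor, with one of -1.14 (SE 0.25).

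Of 24 genes listed as partners and modifiers of FOXO proteins, all tested, 8 rose, 4 fell and 12 did not pass (median 0.09). FOXO6 itself is counted in this list, among the 12, though it passed upward without NG replicate 3. SIRT1, a deacetylase of FOXO proteins, rose from 24.5 ± 1.21 to 63.7 ± 11.5 CPM (SD, n = 3; edgeR adjusted p = 0.000116), and EP300, an acetyltransferase, had a change of 0.98 (SE 0.12). SKP2, an F-box protein that marks FOXO1 for degradation, fell from 64.1 ± 11.1 to 11.1 ± 2.48 CPM (adjusted p = 2.74e-05). PRMT1, a methyltransferase of FOXO1, had a change of -1.26 (SE 0.14).

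Other ligases of muscle atrophy, their E2 enzymes and the SCF core had 10 higher, 4 lower and 8 not passed of 22 tested of 24 (median 0.15). TRIM55, the closest kin of TRIM63 that was tested, went the other way, from 9.58 ± 3.26 to 1.61 ± 0.470 CPM (SD, n = 3; edgeR adjusted p = 0.000328). TRIM54, the remaining MuRF gene, had 0 counts in NG and was below the filter. TRIM32, a ligase of muscle filaments, fell with a change of -0.74 (SE 0.11). The E2 enzymes UBE2D1 and UBE2B rose with changes of 1.43 (SE 0.12) and 1.11 (SE 0.11). The count of genes that rose in this list was 6 without SMG replicate 1.

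Around TXNIP, a list of arrestin-domain and thioredoxin genes had 9 of 13 tested genes higher and 4 lower, with a median of 0.79. That list also held genes of neither family, MLXIP and MLX, which rose, and SLC2A1, which fell. ARRDC4, the arrestin-domain gene that shares with TXNIP its control by glucose-sensing factors, was at 47.8, 28.0 and 116 CPM in NG and 173, 124 and 195 CPM in SMG (edgeR adjusted p = 0.0381). NG replicate 3 was its highest NG library, as in TXNIP, but it stayed below SMG. Its change was 2.12 (SE 0.29) without NG replicate 3, and the call was lost without any other single library, with changes of 1.00 to 1.52. ARRDC1 rose from 90.8 ± 3.73 to 223 ± 20.9 CPM (SD, n = 3; adjusted p = 3.26e-05). TXNRD1, thioredoxin reductase, rose from 288 ± 70.6 to 1524 ± 195 CPM, whereas TXN2, the mitochondrial thioredoxin, and ARRB2, a beta-arrestin, had changes of -0.65 (SE 0.11) and -0.84 (SE 0.14).

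Of the other KLF genes 4 rose, 4 fell and 6 did not pass of 14 tested of 17 (median 0.31). KLF3 and KLF5 had changes of 1.71 (SE 0.10) and 1.59 (SE 0.18), and KLF13 and KLF12 of -1.29 (SE 0.12) and -1.45 (SE 0.20). Without SMG replicate 1, 2 KLF genes fell.

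**Figure D4:**
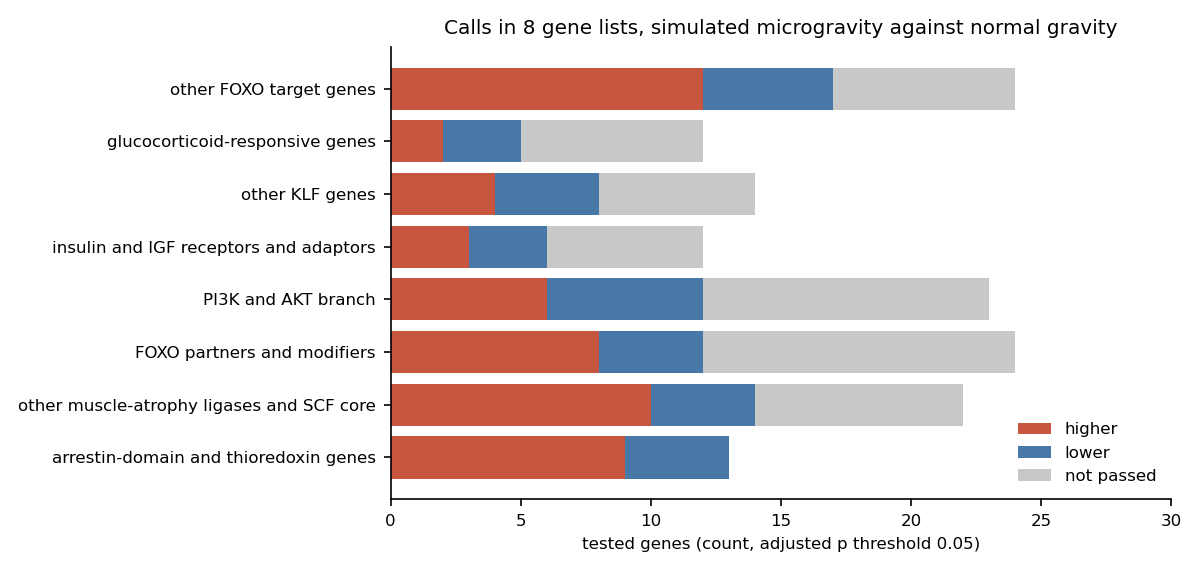
Number of tested genes (horizontal axis) called higher, called lower or not passed at an adjusted p of 0.05 in 8 gene lists. The list of arrestin-domain and thioredoxin genes, which also holds MLXIP, MLX and SLC2A1, has 9 of 13 called higher. That share and the 12 of 24 of other FOXO targets are the largest among these lists.

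Genes listed for glucocorticoids, the hormones that raise TRIM63 and KLF15 in muscle, were mostly highest in NG replicate 3. Besides genes that respond to these hormones, the list held the receptor genes NR3C1 and NR3C2 and the enzyme genes HSD11B1 and HSD11B2. Of these, NR3C1 was highest of all 6 libraries in NG replicate 3 and is in the counts that follow. Of 14 listed, 12 were tested, and NG replicate 3 was the highest NG library for 10 and the highest of all 6 for 8, beside 41.5% and 21.3% of all genes tested. Between the groups 2 rose, 3 fell and 7 did not pass, with a median of -0.53. ERRFI1, a feedback inhibitor of the EGF receptor, rose with a change of 1.65 (SE 0.16) and PER1, a clock gene, with one of 0.67 (SE 0.21), although its groups overlapped and its call was lost without NG replicate 1, NG replicate 2, SMG replicate 1 or SMG replicate 3 (changes 0.56 to 0.59). MT2A, a metallothionein, fell from 459 ± 105 to 97.6 ± 10.1 CPM (SD, n = 3; edgeR adjusted p = 3.49e-05), and FKBP5, a chaperone of the glucocorticoid receptor, was at 294, 273 and 477 CPM in NG and 120, 140 and 108 CPM in SMG (adjusted p = 0.000674). TSC22D3 (GILZ), DUSP1 and ZBTB16 were named after their values were seen. TSC22D3 was at 266, 156 and 1162 CPM in NG and 168, 164 and 210 CPM in SMG. DUSP1, a MAP kinase phosphatase, was at 28.0, 30.5 and 246 CPM in NG and 48.2, 23.1 and 50.2 CPM in SMG. Their changes of -1.54 and -1.33 did not pass, and they were -0.22 and 0.47 without NG replicate 3, while TSC22D3 passed without NG replicate 2 (-1.98). ZBTB16, a transcription factor, passed downward (change -2.89, edgeR adjusted p = 0.0355) but reached 6.16 CPM in NG replicate 3 and at most 0.931 CPM in the other libraries. Its change was -1.05 (SE 0.62) without NG replicate 3 and no longer passed, nor did it without any of the SMG libraries (-3.20 to -2.62). Counts of this list moved with single libraries: 1 rose without NG replicate 1, NG replicate 2, SMG replicate 1 or SMG replicate 3. Without NG replicate 3, 3 rose, NR3C1 among them, and without NG replicate 2, 6 fell. The part of whatever sets NG replicate 3 apart in the values of TXNIP, FBXO32, PIK3IP1, FOXO1 and FOXO4 was not tested.

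**Figure D5:**
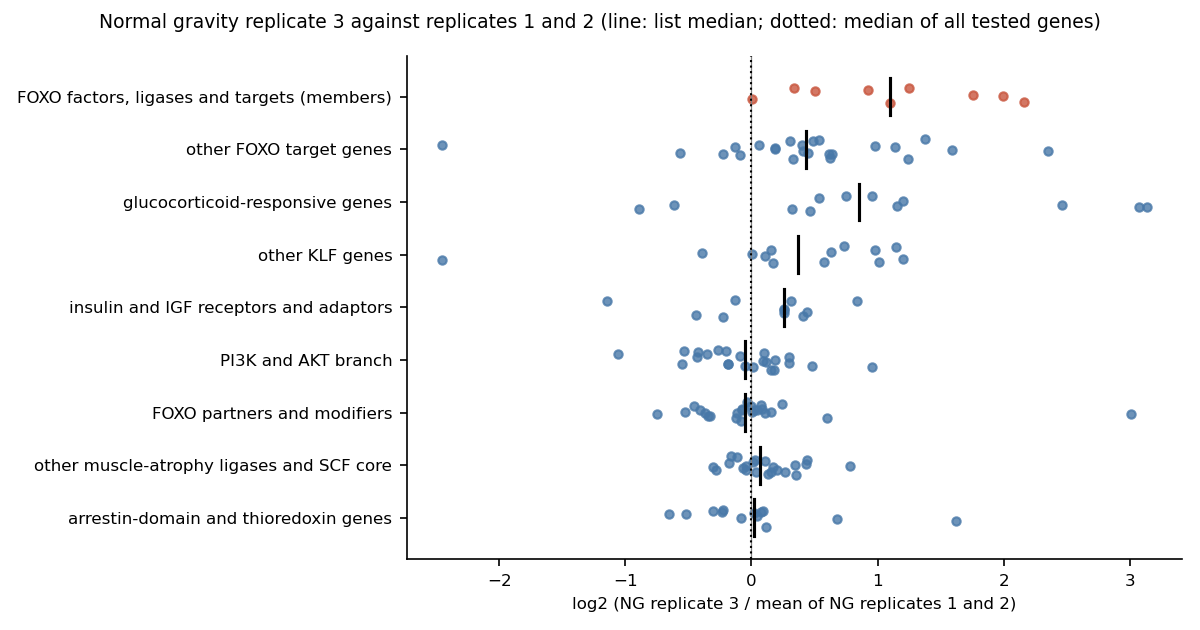
Log2 ratio of NG replicate 3 to the mean of NG replicates 1 and 2 (horizontal axis) for the tested genes of each list, with the list median as a line and the median of all tested genes dotted. The 9 genes of the first row have a median of 1.10 and the list of glucocorticoid-responsive genes of 0.85. The median of the PI3K and AKT list is -0.05, with genes on both sides of 0. The lists of cell type markers are not drawn. GRB14 and KLF17, at 0 in NG replicate 3, are not drawn.

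The likeness of other genes to TRIM63, FBXO32 and TXNIP was measured as Pearson's r of log2 CPM (prior count 2) over the 6 libraries, as a description, since all genes share these libraries and their groups. ZFAND5 (0.9997), CORO1B and SLC45A4 were most like TRIM63, but 2234 genes had an r above 0.95 with it, so its pattern is that of many genes higher in SMG. That order depended on the prior count, which sets the log values of its few NG counts: with a prior count of 0.5 the nearest were SLC45A4, UTP3 and BROX. FBXO32 and TXNIP had 36 and 66 such genes. AHCYL2 (0.993), COL1A1 and MIR23AHG were most like FBXO32. TMEM129 (0.991) and ZNF385A were among the 3 genes most like TXNIP. NG replicate 3 was the highest of the 6 libraries for each of these genes, as for FBXO32 and TXNIP. These r values thus lean on 1 library, and r without it was not computed. The change of COL1A1 was -0.04 with all libraries and 0.50 (SE 0.16) without NG replicate 3, where it passed the threshold.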

How the data were processed

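The file deposited by the authors holds raw read counts of 6 libraries. The submitters' processing notes name the hg38 build and the tools HTSeq, HISAT, fastp, DESeq2 and R 3.2.0, without saying what each did. Annotation and strand setting were not stated there. Columns were matched to samples by group name and number. Genes passing filterByExpr (minimum count 10) were scaled by TMM and tested with edgeR 4.0.16 (quasi-likelihood, robust, R 4.3.3), with Benjamini-Hochberg adjustment over 14736 genes and a threshold of 0.05. SE is |log2 fold change| / √F from that fit. Lengths for RPKM are merged exons of coding transcripts in GENCODE release 29, which may differ from the annotation counted. The labels name no molecular identifiers, so counting intervals cover counting error only. From each list the 2 genes of smallest adjusted p per direction are named, and by rule also FOXO6, ARRDC4, IGF1R, IRS1, TRIM54, TRIM55, genes beside a member and the nearest profiles. AKT1, AKT2, GLUL, TSC22D3, DUSP1, ZBTB16, MLXIP, MLX, SLC2A1 and CDH5, and markers named as absent or near 0, fall outside that rule. So do NR3C1, NR3C2, HSD11B1 and HSD11B2. All of these were named after their values were seen. Of the 3 nearest profiles of TXNIP, 1 is not reported here. KLF2, KLF9, SGK1 and SFN are in 2 lists each. Members and lists were chosen with earlier results of these data known. Alternatives were other scalings and filters, DESeq2 1.42.0, limma-voom (limma 3.58.1), the replicate number as a block and leaving out each library.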

Additional observations from a re-analysis of the deposited data

How the results depend on the processing

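Of 117 refits of single genes, 93 kept direction and side of the threshold, among them every refit of FOXO3, FOXO4, IRS2 and TRIM63. The number of the 10 genes called higher was 6 in the alternatives other than no filter (5) and ranged from 5 to 9 on leaving out a library. FOXO1 missed the threshold without the low-count filter (1.13) and so did PIK3IP1 (2.66). The changes of FBXO32 and TXNIP, -0.01 each, turned positive in many settings, though only without normal gravity replicate 3 past the threshold. With DESeq2 size factors they were 0.012 and 0.0071, by library size only 0.014 and 0.022, with the DESeq2 Wald test 0.012 and 0.0071, with limma-voom 0.061 and 0.40, and FBXO32 was at 0.0045 with a CPM filter. Leaving out single libraries gave -0.20 to 0.37 for FBXO32 and -0.43 to 1.10 for TXNIP. INSR passed without normal gravity replicate 3 (0.44). No pairing by replicate number was seen: deviations of same-numbered libraries from their group means correlated at 0.049, -0.044 and -0.017. With 3 libraries a group, of which NG replicate 3 stood apart, such a check could miss a pairing. With the replicate number as a block, 3875 genes were higher and 3985 lower, 6 of the 10 genes were called higher, and FBXO32 and TXNIP were at 0.063 and 0.42. Calls among all genes stayed between 3435 and 4833 higher and between 3503 and 4722 lower. With 3 libraries a group, 1 library sets the value of FBXO32 and TXNIP, and KLF15 was tested only without the low-count filter, where it was among the 5 called higher. Values of single list genes with a library left out were added after seeing the data.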
